A study of Mus musculus and Homo sapiens
Mus musculus with 16 samples.

Results

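Sox5 and Sox6 are 2 of the genes of the SoxD group, and their promoter-centred chromatin contacts were followed in the forebrain of mouse fetuses at E16.5 and E12.5. The rule that defines them uses gene names and coordinates and no measured value, though the genes were picked with earlier results of these data known. They are 2 of 20665 autosomal protein-coding genes. An interaction was assigned to a gene when either of its 10 kb bins overlapped the gene body on mm10. By this rule 127 and 118 interactions touched the 2 genes in E16.5 replicates 1 and 2, of 35291 and 36794 listed in those libraries. In E12.5 replicates 1 and 2 there were 80 and 79, of 18413 and 16075.

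The data are H3K4me3 PLAC-seq libraries, 2 per stage. PLAC-seq joins fragments of DNA that touch inside the nucleus and then pulls down the joined products with an antibody, here against H3K4me3, a histone mark of active and poised promoters. The files hold only the pairs of bins called as interacting, each with its number of read pairs. Absence from a list therefore does not show absence of contact, and library depth is unknown. The labels give the tissue (forebrain) and stage of each library; they give no genotype or strain of the embryos and do not say whether tissue was pooled. The extraction text of E12.5 replicate 1 describes dissection of adult cortex, against its stage label of E12.5. The replicates are not said to be from different litters, so the spread behind each p-value may be technical. The other 12 samples of the series were not analysed here.

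SoxD proteins bind DNA through an HMG box and pair with one another through a coiled coil. They carry no activation or repression domain of their own and act largely by changing what other Sox proteins and cofactors do, as with Sox9 in cartilage. In the mouse cortex Sox5 is known for its expression in deep-layer corticofugal and subplate neurons, whose identity and migration it controls. Sox6 is known from progenitors of the pallium and from interneurons that arise in the medial ganglionic eminence, where it acts after cell cycle exit. Both genes are long and have many transcripts, and both lie on the minus strand, so the 5′ end of each is at its higher coordinate.

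The promoters in the bins at issue are shown first, because H3K4me3 enrichment selects contacts of promoters. RefSeq windows (GRCm38.p6, a patch release of the mm10 assembly) run from 250 bases before to 50 bases after an annotated start, and CpG dinucleotides are in capitals. The table holds 6 windows for Sox6 and 1 for Sox5, all on the minus strand. It covers 16457 of the 20665 genes, and its 1 Sox5 window lies inside the gene body and not at the 5′ end. Of the Sox6 windows, 2 lie in the bin chr7:116030001-116040000, which had the most listed interactions of the gene. Another 2 windows of Sox6 lie in bins of the gene body that the best-connected bin contacted in every library, and the one in the contact with more read pairs is shown. The Sox5 window is the one the table gives.
Sox6, chr7:116038695-116038994, minus strand: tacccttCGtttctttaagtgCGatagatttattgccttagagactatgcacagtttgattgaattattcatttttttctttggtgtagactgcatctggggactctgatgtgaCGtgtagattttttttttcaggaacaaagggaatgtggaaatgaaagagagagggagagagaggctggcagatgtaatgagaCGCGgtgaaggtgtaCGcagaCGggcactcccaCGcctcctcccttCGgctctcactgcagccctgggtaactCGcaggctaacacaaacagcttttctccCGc
Sox6, chr7:116030998-116031297, minus strand: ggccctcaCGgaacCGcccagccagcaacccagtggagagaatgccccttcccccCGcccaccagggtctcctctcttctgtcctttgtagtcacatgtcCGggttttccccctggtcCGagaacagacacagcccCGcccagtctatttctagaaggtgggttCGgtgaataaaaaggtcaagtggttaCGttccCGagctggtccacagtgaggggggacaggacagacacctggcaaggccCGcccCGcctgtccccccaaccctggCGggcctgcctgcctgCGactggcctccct
Sox6, chr7:115824661-115824960, minus strand: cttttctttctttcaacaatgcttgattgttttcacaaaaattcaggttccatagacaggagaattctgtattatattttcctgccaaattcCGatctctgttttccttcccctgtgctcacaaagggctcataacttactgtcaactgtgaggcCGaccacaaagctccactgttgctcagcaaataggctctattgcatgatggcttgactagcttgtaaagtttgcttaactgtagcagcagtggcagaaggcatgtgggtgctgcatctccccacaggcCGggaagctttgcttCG
Sox5, chr6:143947057-143947356, minus strand: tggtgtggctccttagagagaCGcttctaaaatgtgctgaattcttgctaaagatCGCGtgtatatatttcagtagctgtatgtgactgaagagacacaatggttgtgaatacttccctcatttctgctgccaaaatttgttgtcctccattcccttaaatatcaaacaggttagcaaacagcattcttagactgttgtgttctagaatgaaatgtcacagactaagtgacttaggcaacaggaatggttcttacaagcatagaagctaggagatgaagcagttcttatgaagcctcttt

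Both Sox6 windows of the best-connected bin were richer in CpG than the remaining windows of the 2 genes. They held 11 and 13 CpG, against 2 to 4 in the other 4 Sox6 windows and 3 in the Sox5 window. The median of 20085 promoter windows of autosomal protein-coding genes was 14. The motif GGGCGG, searched on both strands, occurred 4 times in the window chr7:116030998-116031297 and in none of the other 6; 47.0% of all windows hold it. The motif AACAAT, a core of the sites that Sox proteins bind, also searched on both strands, occurred 2 times in the window chr7:115824661-115824960 and in none of the other 6, and 8.78% of all windows hold it. A match is a run of letters and does not show binding.

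Sox5 had almost no listed interactions at E12.5 and many at E16.5. Its body spans 954 kb (chr6:143828425-144782287, 97 bins) and ranks 60th in length among the 20665 genes. It was touched by 34 and 28 listed interactions in the E16.5 libraries, against 1 and 1 in the E12.5 libraries. The stages did not overlap, and the mean was 31.0 ± 4.24 at E16.5 against 1.0 ± 0 at E12.5 (SD, n = 2 each). Both E16.5 libraries also lay above both E12.5 libraries for 64.5% of the 4036 genes tested, beside 3.39% with both below, and the E16.5 lists are longer. Per 10000 listed interactions, Sox5 had 9.63 and 7.61 at E16.5, against 0.543 and 0.622 at E12.5. The number of listed interactions of Sox5 rose relative to the library (log2 change 3.98, SE 0.54; edgeR's quasi-likelihood test over all 4036 genes gave an adjusted p of 0.000435), and 11.0% of the genes tested were called higher. As E12.5 rests on 2 interactions in all, the scaled ratio of the stage sums, 17.1, has an exact 95% counting interval of 4.54 to 144.3. Neighbouring bins are not independent, so this interval covers counting error only. The smallest p that an exact two-sided permutation of 2 libraries against 2 can give is 0.333, and the raw numbers gave it. In bulk tissue, more cells with a contact and more contacts per cell cannot be told apart. With each list limited to its interactions of lowest FDR, at the length of the shortest list, Sox5 still had 15 and 14 interactions at E16.5, against 1 and 1 at E12.5. Its adjusted p was 0.155 when read pairs were counted in place of interactions. With 1 interaction per cluster of neighbouring interactions it had 11 and 11 at E16.5, against 1 and 1 at E12.5, and the log2 change was 2.65 (adjusted p = 0.0434).

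Sox6 was among the best-connected genes at both stages. Its body spans 570 kb (chr7:115470872-116040776, 58 bins), and it was touched by 93 and 90 listed interactions at E16.5, against 79 and 78 at E12.5. The mean was 91.5 ± 2.12 at E16.5 and 78.5 ± 0.71 at E12.5 (SD, n = 2 each), so the raw numbers did not overlap and were higher at E16.5. Among all 20665 genes Sox6 ranked 9th and 12th by this number at E16.5, and 6th in each E12.5 library. Relative to the longer E16.5 lists the number fell: per 10000 listed interactions it was 26.4 and 24.5 at E16.5, against 42.9 and 48.5 at E12.5. The fitted change was -0.64 on the log2 scale (SE 0.15; adjusted p = 0.0095, edgeR's quasi-likelihood test), while the median of all genes tested was 0.24 (0.04 with the library total as the sole scaling, where Sox6 had -0.84) and 3.62% of them were called lower. This call ended under 6 of 16 alternatives: DESeq2 (adjusted p = 0.457), lists of equal length (0.15), distances of at most 200 kb (0.585), 1 interaction per cluster (-0.31 on the log2 scale, adjusted p = 0.899), read pairs in place of interactions (0.194) and the fit without E12.5 replicate 2 (0.0615). Without E12.5 replicate 1, whose extraction text goes against its label, both genes kept their calls (log2 change 3.93, adjusted p = 0.00254 for Sox5 and -0.69, adjusted p = 0.0263 for Sox6). With lists of equal length the raw order turned round, with 42 and 59 interactions at E16.5 against 69 and 78 at E12.5. The number also has a ceiling. On the side with partners, the best-connected bin has 55 body bins and 44 bins beyond the 3′ end in reach. At E12.5, 36 and 38 of the first and 27 and 31 of the second were already listed, which limits what a longer list can add. The part of this ceiling in the relative fall was not tested.

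**Figure D1:**
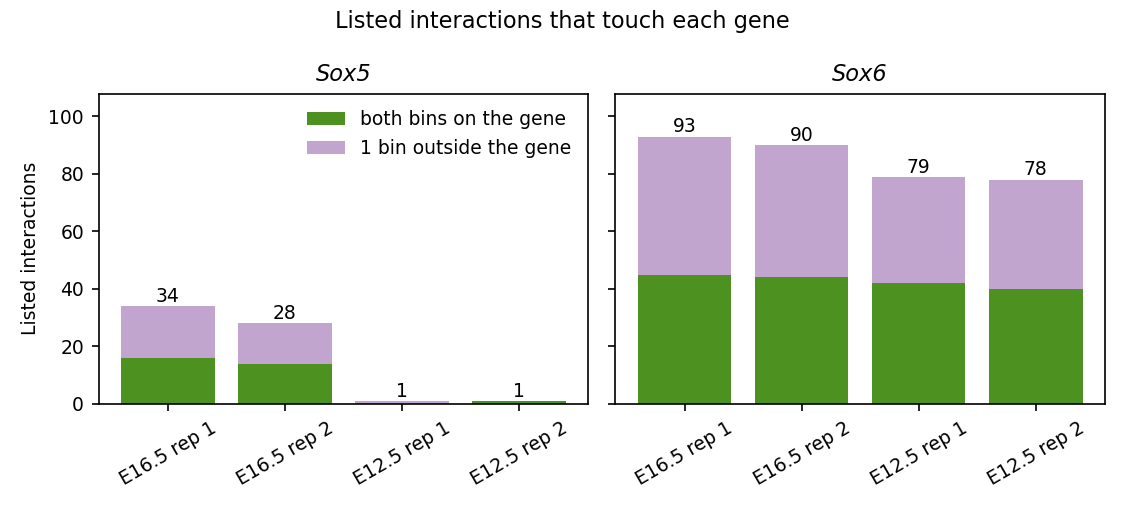
Listed interactions that touch Sox5 (left) and Sox6 (right) in each library, on 1 scale from 0. Green is the part with both bins on the gene and violet the part with 1 bin outside it; the totals are 34, 28, 1 and 1 for Sox5 and 93, 90, 79 and 78 for Sox6.

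The E16.5 contacts of Sox5 had their hub inside the gene. Bin chr6:144200001-144210000 took part in 24 of the 34 interactions in E16.5 replicate 1 and 22 of the 28 in E16.5 replicate 2 (70.6% and 78.6%). At E12.5 it took part in the 1 interaction of each library. It holds no promoter window of the table. Neither does the bin at the 5′ end of the gene, so lack of a window does not show lack of a promoter. The hub ranked 165th and 242nd at E16.5 among the 28408 and 30554 bins with a listed interaction. The neighbouring bin below it (144190001 to 144200000) had 4 and 3 interactions at E16.5 and 0 in both E12.5 libraries. The bin at the 5′ end of the gene (144780001 to 144790000) was next to the hub in number, with 6 and 5 at E16.5 and 0 and 0 at E12.5. The bin that holds the Sox5 promoter window printed above (143940001 to 143950000) had 0 listed interactions in all 4 libraries. In all, 15 and 14 of the 97 bins of the gene had a listed interaction at E16.5, against 1 and 2 at E12.5.

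Within Sox5, contacts ran from the hub towards the 5′ end of the gene. There were 16 and 14 listed interactions with both bins on the gene at E16.5, against 0 and 1 at E12.5. None of the 20 distinct contacts of this kind started more than 1 bin below the hub, although 372 kb of the gene lie on that side. Of those listed in both E16.5 libraries and neither E12.5 library, the one with the most read pairs, 61 and 48, joined the hub to a bin 100 kb away (144300001 to 144310000). Read pairs fall with distance, and its ratio of observed to expected read pairs, 2.39 and 2.27, was the lowest of the Sox5 contacts in each E16.5 library. Contacts of the hub at 210, 260 and 270 kb had means of 35.5, 33.5 and 32.5 read pairs at E16.5. The contact of the hub with the bin of the 5′ end, 580 kb away, had 30 and 35 read pairs and was not listed at E12.5. The 5′ end bin in turn contacted bin 144450001 to 144460000, 330 kb away, with 18 and 21 read pairs at E16.5. This last bin also had the 1 inside contact listed at E12.5, that with the hub at 250 kb, which had 53 and 55 read pairs at E16.5 and 25 in E12.5 replicate 2. It was not listed in E12.5 replicate 1.

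Outside Sox5, the partners fell into separate groups on either side of the gene, in bins with no protein-coding gene body. On the 3′ side, 11 and 9 interactions at E16.5, against 1 and 0 at E12.5, reached bins between chr6:143210001 and 143330000. This stretch begins 1.45 kb beyond the end of Etnk1, an ethanolamine kinase gene, and ends 498 kb short of Sox5. The lists hold no distance above 1000 kb, and the hub's farthest partner on this side lay 990 kb away. The edge of the stretch near Etnk1 is thus close to the limit of the hub's reach and does not show where its contacts end. On the 5′ side, 7 and 5 interactions at E16.5 and none at E12.5 reached bins between 144800001 and 144970000, which end 23.8 kb short of Bcat1, a branched-chain aminotransferase gene. No partner bin outside the gene held a promoter window of the table. The highest ratio of observed to expected read pairs was on the 5′ side in both E16.5 libraries. It was 7.82 in E16.5 replicate 1 (hub with 144950001 to 144960000, 32 read pairs) and 8.30 in E16.5 replicate 2 (hub with 144960001 to 144970000, 24 read pairs). The 1 interaction of E12.5 replicate 1 joined the hub to bin 143320001 to 143330000, 880 kb away, with 15 read pairs; it had 19 and 12 at E16.5. Thus both interactions listed for Sox5 at E12.5 were also listed in both E16.5 libraries.

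**Figure D2:**
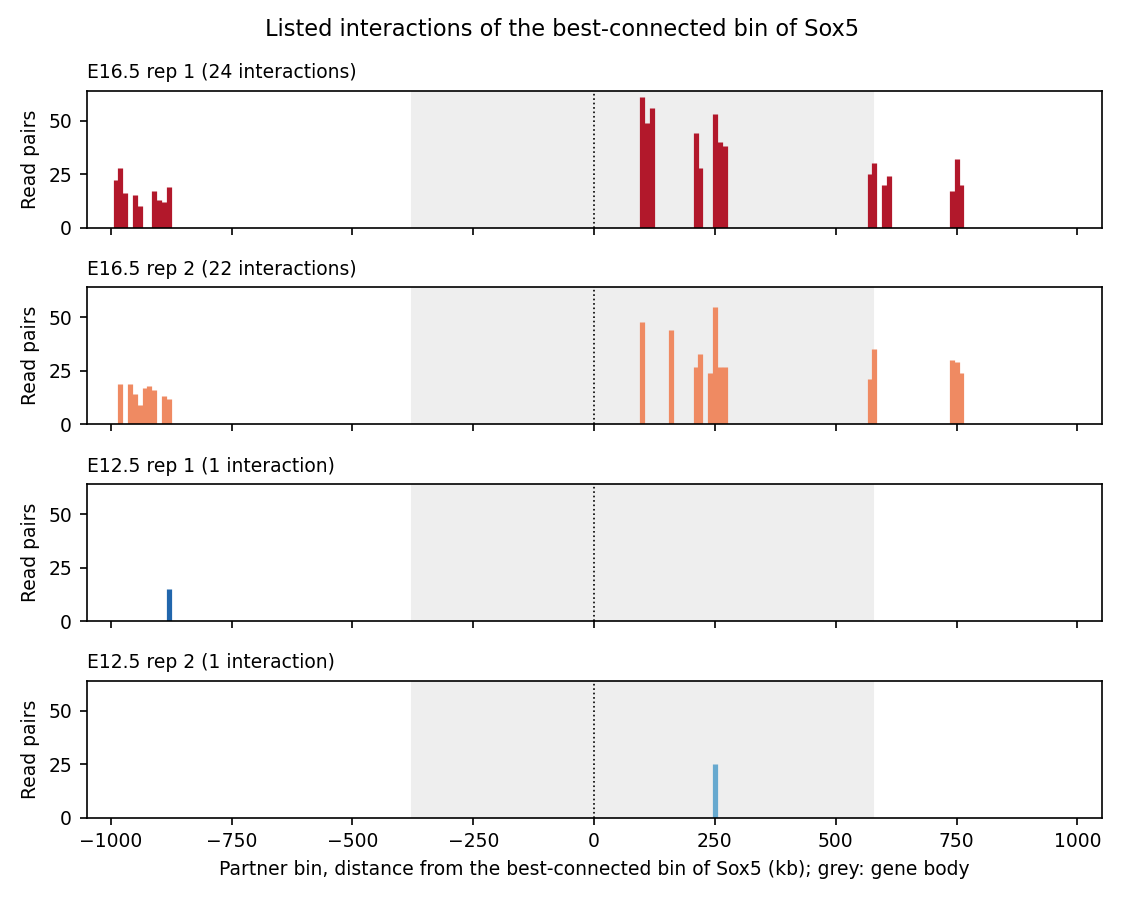
Read pairs of each listed interaction of the best-connected bin of Sox5 against the distance of the partner bin in kb, 1 panel per library; negative distances lie towards the 3′ end of the gene, the dotted line is the bin itself and grey is the gene body. The 24 and 22 partners of the E16.5 libraries stand in separate groups, against 1 partner in each E12.5 library.

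Distance, place and strength of Sox5 contacts could not be compared between stages with any precision, since each E12.5 library held 1 interaction. At E16.5 the share with both bins on the gene was 47.1% and 50.0% (exact 95% intervals 29.8% to 64.9% and 30.6% to 69.4%, counting error only). The median distance was 605 and 665 kb at E16.5, against 880 and 250 kb at E12.5, where it is the distance of the 1 interaction. Inside contacts had a median of 265 kb in each E16.5 library and outside contacts 895 and 900 kb away. For the hub, the median ratio of observed to expected read pairs was 3.37 and 3.57 with listed partners inside the gene at E16.5. With listed partners outside it was 4.38 and 4.51 on the 3′ side and 5.86 and 7.94 on the 5′ side. Only called pairs are listed, and a far pair, with few read pairs expected, needs a higher ratio to be called. These values therefore do not show stronger contact outside the gene than inside it. Over all Sox5 interactions the median was 19 and 20 read pairs at E16.5, and the 2 interactions of E12.5 had 15 and 25. Of 42 distinct Sox5 contacts, 20 were in both E16.5 libraries, which is 58.8% of the list of replicate 1 and 71.4% of that of replicate 2. Of the 42, 18 were in both E16.5 libraries and neither E12.5 library (15.2% of all 58543 listed contacts were), and 0 were in all 4 libraries, so none entered the test of contact strength.

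Sox6 contacts were centred at the 5′ end of the gene. The bin with 2 of its promoter windows, chr7:116030001-116040000, took part in 68 and 73 interactions at E16.5, against 63 and 69 at E12.5. It ranked 4th in each E16.5 library and 2nd and 1st in the E12.5 libraries among all bins with a listed interaction. The bins on either side of it had fewer: 12 and 9 at E16.5 against 9 and 7 at E12.5 in the bin below, and 10 and 5 against 7 and 2 in the bin above. Every partner of the best-connected bin, in all 4 libraries, lay on its lower-coordinate side, that is over the gene body and beyond the 3′ end. Of the 99 bins within reach outside the gene on the 5′ side, towards 1110004F10Rik, none was listed as its partner in any library. The nearest partner was 150 to 160 kb away in all 4 libraries, although the lists hold distances from 20 kb.

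Partners of this bin were spread over the gene body and the region beyond its 3′ end. Of the 55 bins of the Sox6 body in reach, 35 and 37 were listed at E16.5, against 36 and 38 at E12.5, and 31 were listed in all 4 libraries. Of the 44 bins within reach beyond the 3′ end, 33 and 36 were listed at E16.5, against 27 and 31 at E12.5, and 23 in all 4. These outside partners lay between chr7:115030001 and 115470000, a stretch with no protein-coding gene body that begins 180 kb beyond the end of Insc, a gene of spindle orientation. Its farthest bin, listed in E16.5 replicate 2 alone, is 1000 kb from the promoter bin, the longest distance in the lists. Insc was therefore out of reach, and this edge does not show where the contacts end. Inside partners had median ratios of observed to expected read pairs of 3.94 and 4.80 at E16.5, against 4.10 and 4.03 at E12.5. Those of outside partners, which lie farther away, were 5.51 and 6.54 at E16.5, against 5.42 and 5.89 at E12.5. They were higher than the inside ones in every library, but a far pair needs a higher ratio to be listed. The values therefore do not show stronger contact outside the gene than inside it.

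The contact with the highest mean of read pairs lay outside the gene. It joined the promoter bin to bin chr7:115210001-115220000, 820 kb away, with 88 and 64 read pairs at E16.5, against 56 and 61 at E12.5. Its ratio of observed to expected read pairs was 27.5 and 23.9 at E16.5, against 18.1 and 22.3 at E12.5, the highest of any Sox6 contact in each library. It had the most read pairs of any Sox6 contact in every library, level in E12.5 replicate 1 with a contact at 170 kb. The stages did not overlap. Relative to the library the log2 change was 0.01 (SE 0.23; adjusted p = 0.98, edgeR's quasi-likelihood test), and it turned to -0.71 with the library total as the sole scaling. The bins on both sides of the promoter bin also contacted this distal bin in every library, with 11 and 21 read pairs at E16.5 against 12 and 13 at E12.5 for the bin below, and 20 and 13 against 13 and 11 for the bin above. The neighbouring distal bin (115220001 to 115230000) was also contacted in all 4 libraries, with a mean of 43.0 read pairs at E16.5 and 35.0 at E12.5. Inside the gene, the promoter bin contacted the bin of the promoter window at 115824661, 210 kb away, with 45 and 44 read pairs at E16.5 against 37 and 41 at E12.5 (log2 change -0.17, SE 0.25, adjusted p = 0.745). It contacted the bin of the window at 115801560, 230 kb away, with 33 and 21 read pairs at E16.5 against 24 and 34 at E12.5, and these overlapped.

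**Figure D3:**
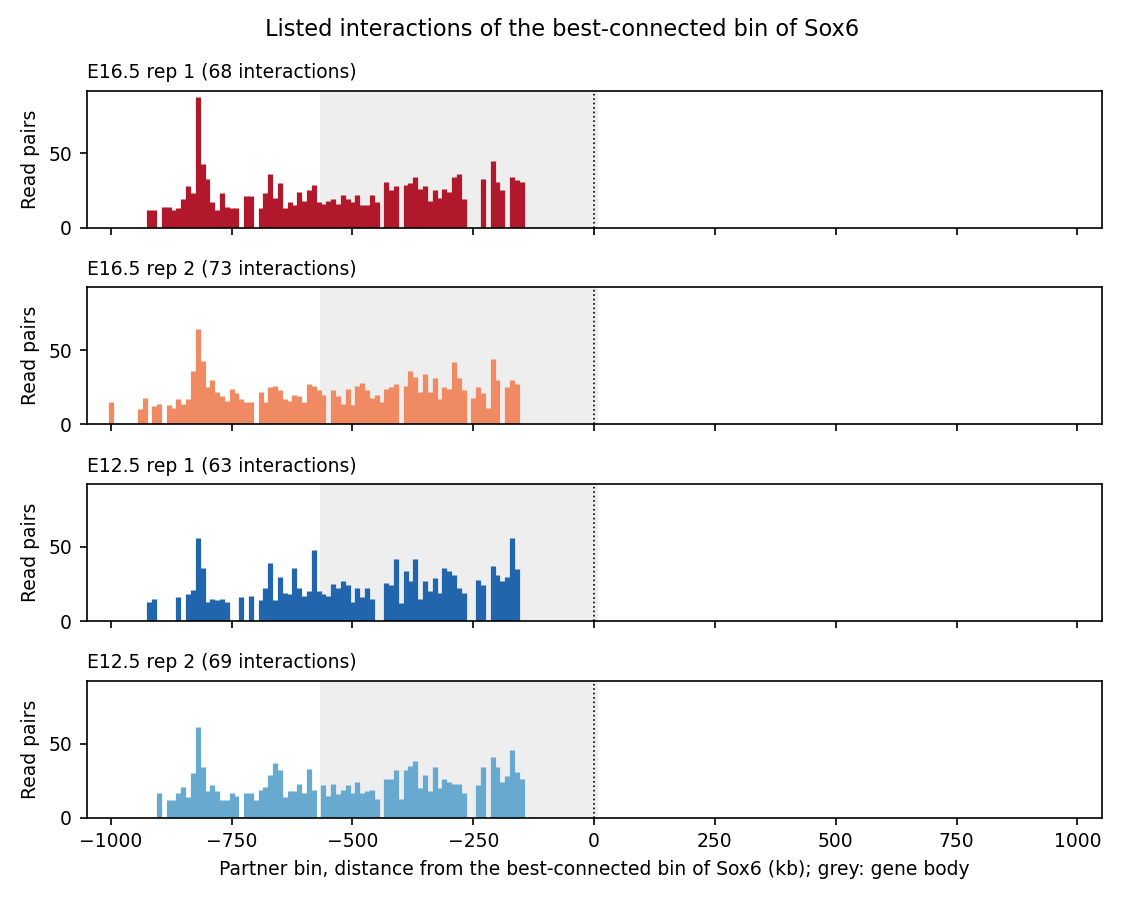
Read pairs of each listed interaction of the best-connected bin of Sox6 against the distance of the partner bin in kb, 1 panel per library; negative distances lie towards the 3′ end of the gene, the dotted line is the bin itself and grey is the gene body. All 68, 73, 63 and 69 partners lie on 1 side, and the tallest line of the E16.5 panels, at -820 kb, is the contact with 88 and 64 read pairs.

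The Sox6 contacts themselves were largely shared between the stages. Of 130 distinct contacts, 56 were listed in all 4 libraries, while 11.7% of all 58543 listed contacts were. A further 2 were in both E16.5 libraries and neither E12.5 library, and 2 were in both E12.5 libraries and neither E16.5 library; 15.2% and 1.83% of all listed contacts were. The first 2 joined bin 116020001 to 116030000 to bins 400 and 360 kb away, with 13 and 10 and with 10 and 10 read pairs at E16.5. The other two joined the promoter bin to 115630001 to 115640000 (12 and 13 read pairs at E12.5) and bin 116020001 to 116030000 to 115200001 to 115210000 (8 and 8 at E12.5). The E16.5 replicates shared 68 contacts, 73.1% and 75.6% of their lists, and the E12.5 replicates shared 63, 79.7% and 80.8% of theirs. Between the stages 63 to 68 were shared, which is 69.9% to 73.3% of an E16.5 list and 79.7% to 87.2% of an E12.5 list.

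Place and distance of Sox6 contacts differed little between the stages. The inside share was 48.4% and 48.9% at E16.5, against 53.2% and 51.3% at E12.5, so the stages did not overlap. The exact 95% intervals were 37.9% to 59.0% and 38.2% to 59.7% in E16.5 replicates 1 and 2. In E12.5 replicates 1 and 2 they were 41.6% to 64.5% and 39.7% to 62.8%. Each interval covers all 4 values. These intervals cover counting error only and take neighbouring interactions as independent, which they are not. The mean difference was -3.59 percentage points (exact two-sided permutation p = 0.333, the smallest possible). Inside contacts numbered 45 and 44 at E16.5 against 42 and 40 at E12.5, and outside contacts 48 and 46 against 37 and 38. The median distance was 550 and 565 kb at E16.5, against 540 and 555 kb at E12.5, so the stages overlapped (exact permutation p = 0.667). For comparison, the median over whole lists was 300 and 290 kb at E16.5, against 260 and 260 kb at E12.5. Read pairs per interaction had medians of 18 and 20 at E16.5, against 19 and 19 at E12.5.

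Read pairs of the 56 shared Sox6 contacts were equal in sum and lower relative to the library. They summed to 1400 and 1390 at E16.5, against 1392 and 1365 at E12.5. The libraries' totals in listed interactions were 892987 and 911710 at E16.5, against 446855 and 405491 at E12.5. In a fit over the 6875 contacts listed in all 4 libraries, 3 of the 56 fell and none rose at an adjusted p of 0.05, and 4.58% of all tested contacts were called lower and 6.02% higher. The median log2 change of the 56 was -0.39, against -0.01 over all 6875, and 47 of the 56 values were negative. No Sox6 contact was called with DESeq2, or with the authors' expected count as an offset, where the median of the 56 was 0.01 against 0.12 over all contacts. With the library total alone, which moved the median of all contacts to -0.73, 45 of the 56 were called lower. Without E16.5 replicate 1, or without E12.5 replicate 1, 1 of the 56 was called lower.

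Of the 56 contacts, 54 have the promoter bin at 1 end, and so did the 3 that fell, a number close to the share of all contacts called lower. The contact with bin 115860001 to 115870000, 170 kb away inside the gene, had 34 and 30 read pairs at E16.5, against 56 and 46 at E12.5 (log2 change -1.03, SE 0.25, adjusted p = 0.00344). That with bin 115620001 to 115630000, at 410 kb, had 28 and 27 against 42 and 32 (adjusted p = 0.045). The third reached bin 115410001 to 115420000, 620 kb away beyond the 3′ end, and had 15 and 20 at E16.5 against 36 and 18 at E12.5 (adjusted p = 0.0232), so its stages overlapped. Without E12.5 replicate 1 none of these 3 calls held, with an adjusted p of 0.0877 for the contact at 170 kb. The call at 410 kb was lost whichever library was left out (adjusted p = 0.0913 to 0.397), and that at 620 kb also without E16.5 replicate 1 (adjusted p = 0.217). The 31 inside contacts had a median log2 change of -0.43, the 13 outside contacts under 750 kb one of -0.49, and the 12 outside contacts at 750 kb or more one of -0.01. In read pairs, these 12 summed to 325 and 323 at E16.5, against 242 and 262 at E12.5, while the 31 inside contacts summed to 791 and 801, against 834 and 806. The boundary of 750 kb was chosen after the values were seen, and the difference was not tested.

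**Figure D4:**
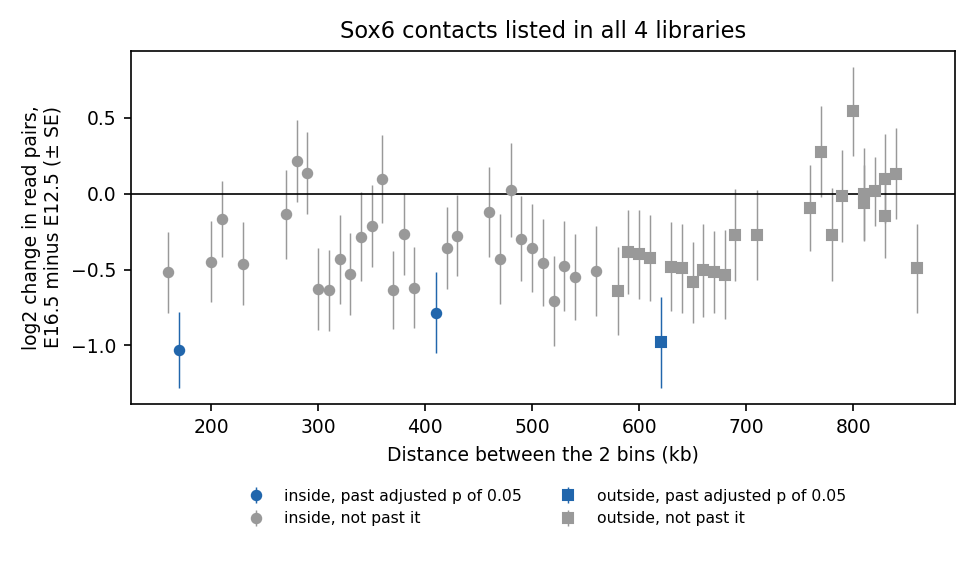
Log2 change in read pairs (E16.5 minus E12.5, ± SE of the fit) of the 56 Sox6 contacts listed in all 4 libraries, against the distance between their bins in kb; circles have both bins on the gene, squares have 1 outside, and blue marks the 3 past an adjusted p of 0.05. Most points lie below 0, with a median of -0.39, and the 12 squares at 750 kb or more lie around 0.

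No other Sox gene of the list rose. Of its 10 genes, 8 had enough interactions to be tested (a sum of at least 10), 4 fell relative to the library and none rose (3.62% and 11.0% over all genes tested), with a median log2 change of -0.75 against 0.24 over all genes tested. The 4 were Sox21 (12 and 17 interactions at E16.5, 19 and 16 at E12.5), Sox2 (63 and 49 against 59 and 61), Sox9 (25 and 31 against 26 and 29) and Sox1 (33 and 31 against 32 and 29). Sox1, Sox2 and Sox21 are SoxB genes of neural progenitors and Sox9 is a SoxE gene of progenitors and glia. Their adjusted p-values by edgeR's quasi-likelihood test were 0.0229, 0.00422, 0.0363 and 0.0331, and the raw numbers of each overlapped between the stages. Of these 4 calls, only that of Sox2 held without E12.5 replicate 1 and likewise without E12.5 replicate 2, and none held with DESeq2. With lists of equal length only the call of Sox2 held, and with 1 interaction per cluster none did. Sox13, the remaining SoxD gene, has a body of only 42.2 kb on chromosome 1 and had 10 and 13 interactions at E16.5, against 8 and 13 at E12.5 (log2 change -0.72, SE 0.38, adjusted p = 0.286). The SoxC gene Sox11, known from newborn neurons, had the most interactions of the list, 151 and 151 at E16.5 against 82 and 95 at E12.5, and did not pass relative to the library (adjusted p = 0.732).

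Among regulators of deep-layer projection neurons, the cells in which Sox5 is known to act, 6 of 12 genes tested rose, 1 fell and 5 did not pass, against 11.0% called higher and 3.62% lower over all genes. The list's median log2 change was 1.15, against 0.24 over all genes. Zfpm2, a zinc finger cofactor gene, had 22 and 15 interactions at E16.5, against 0 and 0 at E12.5 (at least 6.80-fold higher against 3 counts over the stage, adjusted p = 0.00115), and Tbr1, a T-box gene of layer 6, had 43 and 36 against 5 and 5 (adjusted p = 0.00151). Bhlhe22 (32 and 18 against 3 and 1), Rprm (22 and 21 against 4 and 3) and Tshz3 (82 and 87 against 20 and 28) also rose, with adjusted p-values of 0.00539, 0.0111 and 0.00831. Bcl11a, with 65 and 78 against 58 and 62, fell relative to the library (adjusted p = 0.0257). Without E12.5 replicate 1 the calls of Tshz3 and Rprm were lost, without E12.5 replicate 2 those of Rprm and Bcl11a, and without E16.5 replicate 1 that of Bcl11a. With DESeq2 Tshz3 (adjusted p = 0.138), Rprm (0.181) and Bcl11a (0.541) did not pass, and with lists of equal length Rprm did not. In the edgeR fit with 1 interaction per cluster, Tbr1 (adjusted p = 0.347) did not pass. Nor did Bhlhe22, Tshz3, Rprm and Bcl11a (0.556 each) in that fit, while Zfpm2 kept its call (0.0275). Both E16.5 libraries lay above both E12.5 libraries in raw number for 12 of the 12, against 64.5% of all genes.

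Among regulators of medial ganglionic eminence interneurons, the lineage in which Sox6 is known, 2 of 14 genes tested rose, 1 fell and 11 did not pass, beside 11.0% called higher and 3.62% called lower over all genes, with a median log2 change of 0.22 against 0.24 over all genes. Zeb2 rose (34 and 29 at E16.5, 7 and 2 at E12.5, adjusted p = 0.00675), as did Satb1 (5 and 9 against 0 and 0, at least 2.57-fold higher, adjusted p = 0.0262). Dlx2, a homeobox gene of the ganglionic eminences, fell (16 and 12 against 19 and 17, adjusted p = 0.0162). The calls of Satb1 and Dlx2 were lost without E12.5 replicate 1, all 3 without E12.5 replicate 2, and that of Dlx2 without E16.5 replicate 2. Zeb2 (adjusted p = 0.0585) and Dlx2 (0.254) did not pass with DESeq2, nor with lists of equal length. With 1 interaction per cluster they did not pass either (adjusted p = 0.432 and 0.758 by edgeR's quasi-likelihood test). Satb1 gave no adjusted p in any of these settings.

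**Figure D5:**
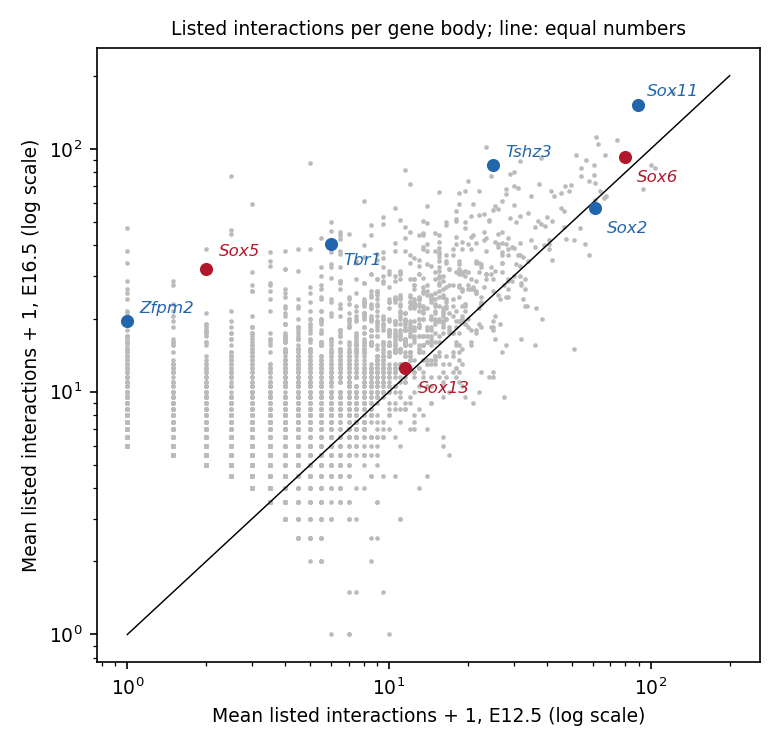
Mean number of listed interactions plus 1 per gene body at E16.5 against E12.5 for the 4036 genes tested, both axes on a log scale; red points are the SoxD genes, blue points are genes of the lists named in the text, and the line marks equal numbers. Sox5 lies far above the line (means of 31.0 and 1.0) and Sox6 close to it (91.5 and 78.5).

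The genes whose numbers were most like those of the 2 genes were found by the sum over the 4 libraries of absolute differences in log2(number + 1). For Sox5 they were Tenm2, a teneurin gene (30 and 30 at E16.5, 2 and 2 at E12.5; sum of differences 1.44), Bhlhe22 (1.69), Hivep2 (1.77), Klf6 (1.78) and St6galnac3 (1.86). For Sox6 they were Gse1 (106 and 109 at E16.5, 74 and 73 at E12.5; sum of differences 0.648), Zfp703 (0.699), Lhx2 (0.943), Zfp608 (1.02) and Mycn (1.02). This is a description over 4 libraries.

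As for the tissue, 9 of 10 forebrain marker genes had enough interactions to be tested, and the list summed to 339 and 310 interactions at E16.5 against 299 and 301 at E12.5. Of the 9, 2 rose and 4 fell relative to the library, against 11.0% called higher and 3.62% called lower over all genes tested. Neurod6, of projection neurons, had 34 and 21 at E16.5 against 0 and 0 at E12.5 and rose with Tbr1, while the progenitor genes Pax6 (24 and 14 against 41 and 34), Emx2 (65 and 70 against 85 and 99) and Lhx2 (78 and 91 against 100 and 99) fell with Dlx2. Their adjusted p-values by edgeR's quasi-likelihood test were 0.000793 for Neurod6 and 0.000793, 0.000313 and 0.000376 for Pax6, Emx2 and Lhx2. The remaining 3 genes tested did not pass. Among them Emx1 went up, with 14 and 23 at E16.5 against 6 and 3 at E12.5 (log2 change 1.16, adjusted p = 0.088 by the same test). The part of a changed mix of cells in the Sox5 and Sox6 values was not tested. Endothelial markers summed to 0 or 1 per library, with Cdh5, Pecam1, Kdr and Tie1 at 0 in all 4, and microglial and erythroid markers to 1 or 2 each. Markers of meninges and mesenchyme summed to 24 and 11 at E16.5 and 16 and 17 at E12.5, with Col1a2 and Dcn at 0. Of the Hox genes of hindbrain and spinal cord, Hoxb1 was at 0 in all 4 libraries and Hoxb4 fell (7 and 2 at E16.5, 19 and 13 at E12.5, adjusted p = 0.00148). Hoxb8 had the most interactions of this list, 45 and 31 at E16.5 against 34 and 24 at E12.5. It did not pass (adjusted p = 0.284, edgeR's quasi-likelihood test). The Hox genes of hindbrain and spinal cord summed to 60 and 40 at E16.5 and 63 and 42 at E12.5; the part of other regions or cell types in the results was not tested.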

How the data were processed

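Per the labels' protocols, frozen forebrain was crosslinked, digested with MboI, ligated and enriched with an H3K4me3 antibody. BWA, SAMtools and the build mm10 are named per the submitters' processing notes; the caller of interactions is not given in the sources used here. The authors deposited, per the file headers, a count of read pairs for each called interaction, an expected signal, an FDR (that is, a q-value) and a cluster with its −log10 p. Interactions were called per library, on 19 autosomes, 20 to 1000 kb apart, with an FDR under 0.01.

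Gene bodies and promoter windows came from RefSeq tables of GRCm38.p6. Interactions per gene body (sum of at least 10) and read pairs per shared contact were tested with edgeR 4.0.16 (TMM, robust quasi-likelihood, stage as sole term, Benjamini-Hochberg at 0.05; library size is the listed total) in R 4.3.3; DESeq2 1.42.0 was an alternative. Single values used exact permutation tests. Changes are E16.5 minus E12.5, coordinates 1-based. Each SE is the absolute log2 change divided by the square root of the F statistic of edgeR's test. Named contacts, bins, partners, like genes and list genes followed fixed rules of rank or p; Sox13, Sox11, Bcl11a and the marker genes with values were added after their values were seen. The values of 1 gene of the deep-layer list are not reported here. Members and lists were chosen with earlier results of these data known. On simulated counts with 4-fold changes, 34.6% of 188 changed genes of 3729 and 97.5% of 200 changed contacts of 6875 were recovered. Replicates differed by more than counting noise (chi-square over degrees of freedom 1.75 for E16.5 and 1.30 for E12.5; over contacts averaging 40 or more read pairs).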

Additional observations from a re-analysis of the deposited data

How the results depend on the processing

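The Sox5 change kept its direction in all 15 alternatives that gave a value (log2 change 2.65 to 4.26) and passed in 14; distances of at most 200 kb left too few interactions to test. The exception was read pairs in place of interactions (4.26, adjusted p = 0.155), where edgeR called 0 genes (1563 with an unadjusted p under 0.05). Leaving out 1 library gave 3.76 to 4.14. The Sox6 change kept its direction in 16 alternatives and passed in 10. It did not pass with DESeq2 (-0.58), lists of equal length (-0.46), distances of at most 200 kb (-0.69), 1 interaction per cluster (-0.31), read pairs (-0.80) and without E12.5 replicate 2 (-0.63); leaving out 1 library gave -0.73 to -0.57.

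Of 4036 genes, edgeR called 442 higher and 146 lower, and 414 and 248 with the library total without TMM. The sum of 588 became 97 with DESeq2, 333 with an FDR under 0.0001, 248 with lists of equal length, 105 within 200 kb, 31 with 1 interaction per cluster and 285 to 493 with 1 library left out. Of 6875 contacts 729 were called, against 3598 with the library total without TMM (33 higher), 98 with DESeq2, 18 with the expected count as an offset, 468 with an FDR under 0.0001 and 279 to 536 with 1 library left out. The cause of these moves was not tested. With the replicate block, 583 genes and 937 contacts were called, and both Sox genes kept their calls (3.99 and -0.64). Same-numbered libraries shared only a number (correlation of deviations 0.084). A quasi-dispersion kept from falling under 1 was chosen after seeing the data and gave 489 genes and 676 contacts.

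For Sox5, median read pairs differed by -0.5 between stages, and by 6, 8.75 and 9 with an FDR under 0.0001, equal lists and summits of clusters (-5.5 to 4.5 with 1 library left out); the median distance and inside share ranged from -245 to 385 kb and from -51.5 to 48.5 points with 1 library left out. For Sox6, the inside share differed by 0 points within 200 kb, -2.51 with the body widened by 1 bin and -2.06 with summits (-4.53 to -2.64 with 1 library left out). Its median distance differed by -2.5 kb within 200 kb and -55 kb with summits (2.5 to 17.5 with 1 left out), and its median read pairs by 4.25 with equal lists, -1.25 within 200 kb and -3.25 with summits (-1 to 1 with 1 left out). The Sox6 contact at 820 kb turned negative with the library total (-0.71), a mean of at least 20 read pairs (-0.0201), without E16.5 replicate 1 (-0.18) and without E12.5 replicate 1 (-0.07), and leaving out 1 library gave -0.1776 to 0.1786. With the expected count as an offset the contacts at 210 and 810 kb turned positive (0.14 and 0.32).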
